A study of Mus musculus with 69 samples.

Results

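The data described here concern 10 astrocyte genes in the nucleus accumbens of male mice. They are Aqp4, Aldh1l1, Slc1a2, Slc1a3, Gja1, Gjb6, S100b, Aldoc, Sox9 and Fgfr3, taken from a table of 52636 genes by their symbols. No measured value was part of the rule, but earlier results of these data were known when the list was made. RNA was counted in 32 libraries of whole tissue in 4 groups of 8. The groups were ELS Dot1l knockdown and ELS GFP, from animals exposed to early life stress (ELS), and Standard Dot1l overexpression and Standard GFP, from animals of standard rearing. By the names of the groups, GFP libraries served as controls for a manipulation of Dot1l, the gene of the enzyme that methylates histone H3 at lysine 79. The sources used here give neither the vector and its promoter, nor the cells it reached, nor the strain and age of the animals. Dimethylation of that residue (H3K79me2) was also mapped by chromatin immunoprecipitation in 9 ELS and 9 Standard libraries, labelled with no genotype, beside 10 ELS and 9 Standard input libraries, and is held as 1 peak list per rearing group. Nothing in the labels says that libraries of a group came from separate animals, so p-values measure the spread between these libraries, which may be technical.

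Astrocytes take up glutamate and potassium released by neurons, carry water at their endfeet on blood vessels, and are coupled to each other by gap junctions. In the striatum, their glutamate transporters set how long transmitter stays near the synapses of medium spiny neurons. Sox9 is a transcription factor that marks astrocytes in the adult brain, and Fgfr3 is the fibroblast growth factor receptor typical of them. H3K79me2 is found over the first part of the bodies of transcribed genes.

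Libraries held 462214 to 8801065 counts in ELS Dot1l knockdown, 1764855 to 11117998 in ELS GFP, 2481883 to 7877118 in Standard Dot1l overexpression and 314200 to 9803521 in Standard GFP. Of the 4 libraries under 1000000 counts, 3 were Standard GFP (replicates 1, 4 and 5) and 1 was ELS Dot1l knockdown (replicate 7). TMM factors were 0.53 in Standard Dot1l overexpression replicate 1 and 0.565 in Standard GFP replicate 6, the lowest of all 32, so that CPM in these libraries are raised most over counts per library total. A filter on low counts left 14016 genes, 9 of the 10 astrocyte genes among them, and S100b did not pass it. Dot1l averaged 43.1 ± 15.2 CPM (counts per 1000000 of a library size scaled by the TMM factor of edgeR) in ELS Dot1l knockdown and 35.6 ± 11.4 CPM in ELS GFP. It averaged 43.1 ± 19 CPM in Standard Dot1l overexpression and 33.9 ± 10.8 CPM in Standard GFP (SD, n = 8 each). The log2 fold changes were 0.28 (SE 0.27) for knockdown against ELS GFP and 0.33 (SE 0.27) for overexpression against Standard GFP, with edgeR adjusted p of 0.985 and 0.741. The mean level of Dot1l was thus not lower in the libraries labelled knockdown than in their controls, and a direction given for either manipulation is that of the libraries so labelled. Gfap, the intermediate filament gene that usually marks astrocytes, is listed at 0 counts in all 32 libraries and gives no value here.

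Promoter windows of 250 bases before to 50 after a RefSeq start (GRCm38.p6) were available for 8 of the 10 genes, in 10 windows. Those of Gja1 and Slc1a3 are shown because these genes had the smallest p in the ELS comparison, and that of Slc1a2 because it alone had H3K79me2 peaks. All 3 were chosen after their values were seen. Capitals mark a match to the TATA box letters TATAAA on either strand, and the windows read 5′ to 3′ on the strand of the gene.
Gja1 (chr10:56377050-56377349, plus strand): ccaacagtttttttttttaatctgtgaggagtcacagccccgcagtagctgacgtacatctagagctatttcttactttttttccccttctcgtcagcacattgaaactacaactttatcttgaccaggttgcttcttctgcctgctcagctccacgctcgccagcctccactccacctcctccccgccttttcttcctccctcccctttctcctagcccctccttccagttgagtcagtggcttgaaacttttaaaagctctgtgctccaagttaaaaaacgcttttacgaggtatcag
Slc1a3 (chr15:8710758-8711057, minus strand): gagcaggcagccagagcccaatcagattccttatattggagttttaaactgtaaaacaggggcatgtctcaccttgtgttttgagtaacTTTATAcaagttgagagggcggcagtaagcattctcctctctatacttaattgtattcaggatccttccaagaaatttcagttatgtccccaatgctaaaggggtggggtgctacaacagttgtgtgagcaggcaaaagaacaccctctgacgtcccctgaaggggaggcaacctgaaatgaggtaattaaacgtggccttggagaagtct
Slc1a2 (chr2:102706188-102706487, plus strand): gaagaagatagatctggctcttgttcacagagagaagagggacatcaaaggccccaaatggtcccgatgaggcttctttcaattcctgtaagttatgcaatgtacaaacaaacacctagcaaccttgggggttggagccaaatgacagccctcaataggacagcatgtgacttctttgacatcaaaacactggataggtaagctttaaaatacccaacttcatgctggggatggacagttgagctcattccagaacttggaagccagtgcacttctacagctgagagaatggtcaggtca
The letters AACAAT, the core read by SOX proteins, were searched for on both strands and stood in none of the 10 windows, against 10.7% of all 32851 windows in the table. TTGGCA, the half-site of nuclear factor I, stood in 1 window each of Aldoc and S100b, against 14.1% of all windows. TATAAA stood in the Slc1a3 window alone, against 13.6% of all. A match is a description of letters, and no match says only that these letters are not in these windows.

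The ELS comparison asked what early life stress did in animals given GFP alone. All 9 tested astrocyte genes had lower levels in ELS GFP libraries than in Standard GFP libraries, by 0.21 to 0.88 on the log2 scale, and none passed the adjusted threshold of 0.05. The median log2 fold change over the 9 genes was -0.64, against -0.01 over all 14016 tested genes, of which 51.2% were lower. Gja1, Slc1a3, Aqp4 and Fgfr3 were lower at an unadjusted p under 0.05, that is 4 of 9, where 7.73% of all tested genes were lower at that level. The edgeR adjusted p of the 9 genes ran between 0.135 for Gja1 and 0.778 for Aldh1l1. Over all genes edgeR called 0% past the adjusted threshold, with 1644 genes at an unadjusted p under 0.05, while limma voom called 0 and DESeq2 called 88, none of them among the 9. In bulk tissue, fewer astrocytes and less of these RNAs per astrocyte cannot be told apart.

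The size of the ELS difference rested in part on 1 shallow control library. Standard GFP replicate 5, with 545917 counts, had the highest level of its group for 6 of the 9 genes. Without it the median log2 fold change was -0.44 and 2 genes were under an unadjusted p of 0.05. Without the 4 libraries under 1000000 counts the median was -0.5 and 1 gene was under 0.05, and all 9 genes were still lower. With 11 surrogate variables in the fit the median was -0.19, no gene was under 0.05, and Slc1a2 stood at 0.03, Gja1 at -0.3, Aqp4 at -0.16, Slc1a3 at -0.13, Sox9 at -0.25, Aldoc at -0.05, Aldh1l1 at -0.19, Fgfr3 at -0.46 and Gjb6 at -0.87. Per library total, without TMM factors, all 9 were lower at a median of -0.6.

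**Figure D1:**
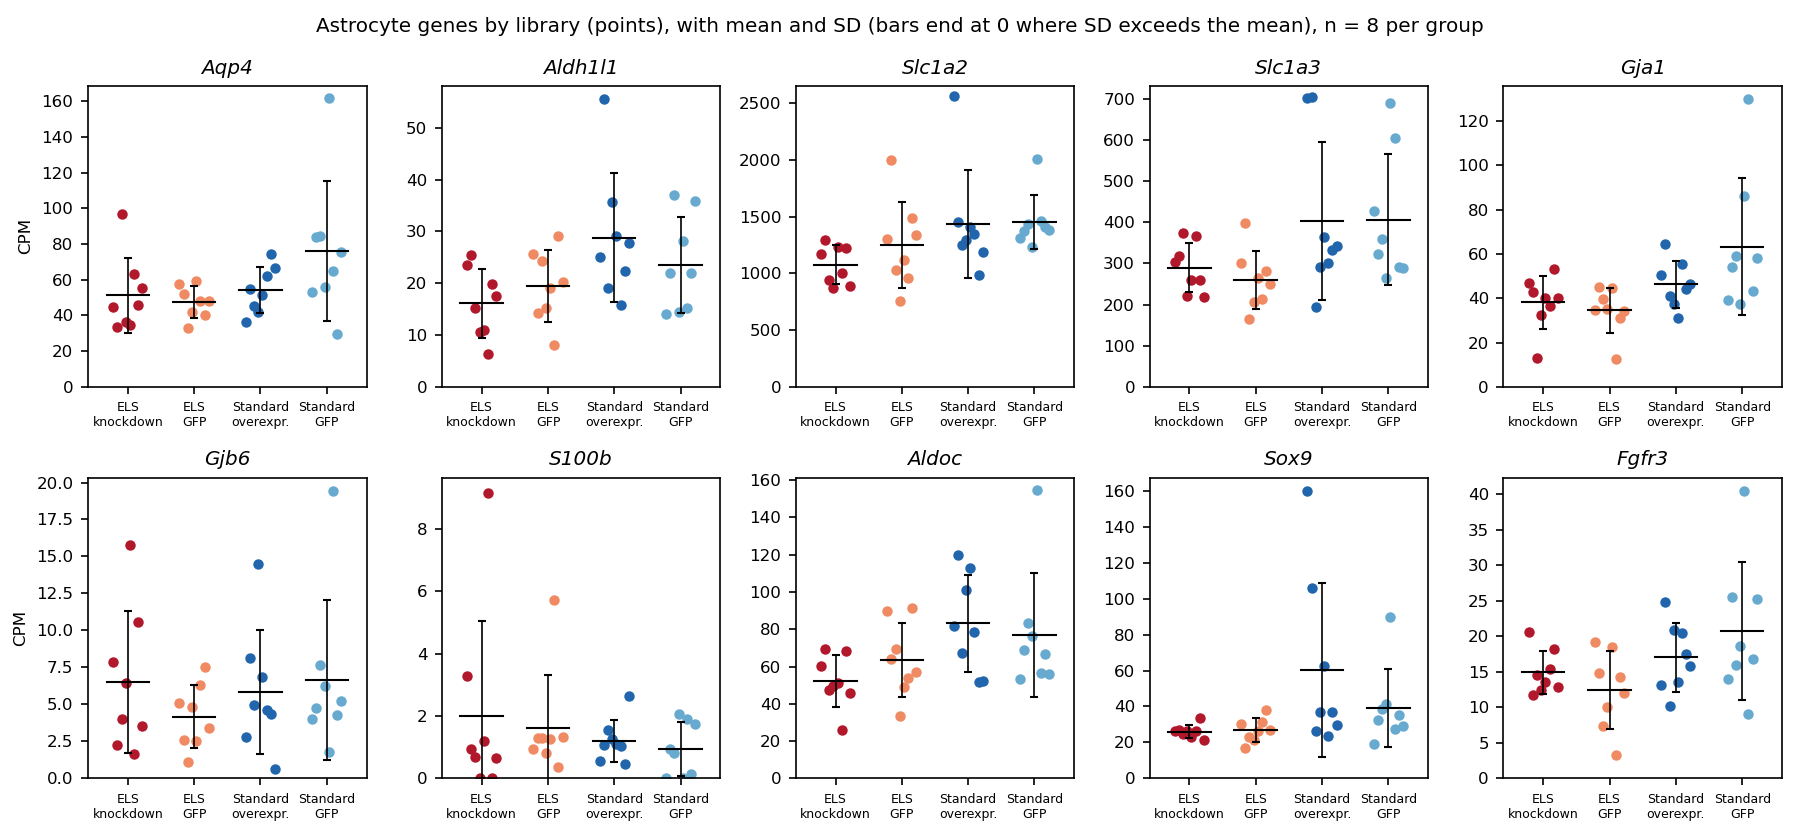
Levels of the 10 astrocyte genes in CPM (vertical axis, from 0) in each library (points) of ELS Dot1l knockdown, ELS GFP, Standard Dot1l overexpression and Standard GFP, with mean and SD (n = 8). Groups overlap for every gene, and single libraries stand high, such as Standard GFP replicate 5 at 162 CPM of Aqp4 and Standard Dot1l overexpression replicate 1 at 160 CPM of Sox9.

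Slc1a2 (ENSMUSG00000005089, chr2:102658239-102790784) and Slc1a3 (ENSMUSG00000005360, chr15:8634124-8710807) encode the glial glutamate transporters. Gene positions here are RefSeq spans on GRCm38.p6, the mm10 build. Slc1a2 had 757 to 2000 CPM in ELS GFP (median 1210) and 1230 to 2010 CPM in Standard GFP (median 1390). In 6 of 8 ELS GFP libraries it lay below the Standard GFP median, yet the difference of -0.21 (SE 0.18) was near its own error (edgeR adjusted p = 0.724). In ELS Dot1l knockdown Slc1a2 had 869 to 1290 CPM (median 1090), and in Standard Dot1l overexpression 984 to 2560 CPM (median 1320). The highest of these, 2560 CPM in overexpression replicate 1, stood far above the next library at 1450 CPM. Per library total, without the TMM factor, that library held 1350 counts per 1000000, below replicate 2 at 1650 and replicate 3 at 1580. Ordered by mean, the groups ran 1080 ± 169 CPM in ELS Dot1l knockdown, 1250 ± 381 CPM in ELS GFP, 1430 ± 477 CPM in Standard Dot1l overexpression and 1450 ± 240 CPM in Standard GFP (SD, n = 8 each), with no neighbours apart by more than their spread.

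Slc1a3 had 165 to 397 CPM in ELS GFP (median 257) and 265 to 690 CPM in Standard GFP (median 341), and 7 of 8 ELS GFP libraries lay below the Standard GFP median. The log2 fold change was -0.64 (SE 0.24, edgeR adjusted p = 0.223) and -0.49 without Standard GFP replicate 5. The ELS Dot1l knockdown libraries had 218 to 374 CPM (median 282). Standard Dot1l overexpression spread between 193 and 704 CPM (median 337), where replicates 1 and 2 reached 703 and 704 CPM and the other 6 stayed at or below 363 CPM. Per library total replicate 1 held 371 and replicate 2 held 801 counts per 1000000.

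Aqp4 (ENSMUSG00000024411) encodes the water channel of astrocyte endfeet. It had 32.7 to 59.3 CPM in ELS GFP (median 47.9) and 29.5 to 162 CPM in Standard GFP (median 70.3). All 8 ELS GFP libraries lay below the Standard GFP median, although Standard GFP replicate 7 held the lowest level of both groups. The log2 fold change was -0.67 (SE 0.25, edgeR adjusted p = 0.236) and -0.44 without Standard GFP replicate 5. Aqp4 had 33.6 to 96.7 CPM in ELS Dot1l knockdown (median 45.2), with replicate 3 well above the next library at 63.2 CPM. In Standard Dot1l overexpression it had 36.5 to 74.3 CPM (median 53.3), and 7 of 8 libraries lay below the Standard GFP median.

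Gja1 (ENSMUSG00000050953, chr10:56377300-56390419) and Gjb6 (ENSMUSG00000040055, chr14:57123301-57133611) encode the 2 main connexins of astrocytes, the channel proteins of their gap junctions. Gja1 had 12.5 to 45.2 CPM in ELS GFP (median 34.9) and 37.3 to 130 CPM in Standard GFP (median 56.2). Every ELS GFP library lay below the Standard GFP median, and the groups overlapped only between 37.3 and 45.2 CPM. Its log2 fold change of -0.88 (SE 0.26) was the furthest from 0 of the 9 genes, with an edgeR adjusted p of 0.135, a value of -0.64 without Standard GFP replicate 6 and of -0.3 with surrogate variables. Gja1 had 13.1 to 53.2 CPM in ELS Dot1l knockdown (median 40.1), again with all 8 libraries below the Standard GFP median, and in Standard Dot1l overexpression 31.1 to 64.5 CPM (median 45.2).

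Gjb6 was sparse and uneven. It had 1.1 to 7.5 CPM in ELS GFP (median 4.1) and 1.76 to 19.4 CPM in Standard GFP (median 5), on 1 to 51 counts per Standard GFP library. Standard GFP replicate 6 alone held 36.4% of the summed Gjb6 level of its group, and per library total it held 10.9 counts per 1000000, next to 9.55 in replicate 4. The log2 fold change of -0.71 (SE 0.5, edgeR adjusted p = 0.637) was -0.25 without that library. Gjb6 had 1.64 to 15.8 CPM in ELS Dot1l knockdown (median 5.25) and in Standard Dot1l overexpression 0.607 to 14.5 CPM (median 4.76).

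Aldh1l1 (ENSMUSG00000030088, chr6:90550768-90599171), a folate-metabolising dehydrogenase used as a pan-astrocyte marker, and Aldoc (ENSMUSG00000017390, chr11:78323073-78327781), the aldolase isoform of the brain, had differences between the rearing groups close to their own errors. Aldh1l1 had 7.98 to 29.1 CPM in ELS GFP (median 19.7) and 14 to 37 CPM in Standard GFP (median 22), with 5 of 8 ELS GFP libraries below the Standard GFP median and a log2 fold change of -0.29 (SE 0.3, edgeR adjusted p = 0.778). Aldoc had 33.4 to 91.3 CPM in ELS GFP (median 60.5) and 53.1 to 155 CPM in Standard GFP (median 67.8), a log2 fold change of -0.26 (SE 0.24, edgeR adjusted p = 0.752) that was -0.05 without Standard GFP replicate 5. For both genes the ELS and Standard ranges overlapped. Aldh1l1 averaged 16.2 ± 6.65 CPM in ELS Dot1l knockdown and 28.8 ± 12.5 CPM in Standard Dot1l overexpression (SD, n = 8 each). Aldoc averaged 52.2 ± 14.1 CPM in ELS Dot1l knockdown and 83.2 ± 26.3 CPM in Standard Dot1l overexpression (SD, n = 8 each).

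S100b (ENSMUSG00000033208, chr10:76253836-76261319), a calcium-binding protein of astrocytes, was close to the limit of detection. It had 2 to 28 counts per library in ELS GFP and 0 to 11 counts in Standard GFP, where 2 libraries held none. Each library without a count allows a level of up to 3 counts of its total. In a fit without the filter on low counts its log2 fold change was 0.71 (SE 0.78, edgeR adjusted p = 0.748), so its direction in ELS was the opposite of the other 9 genes and within its error. It had 0 to 39 counts in ELS Dot1l knockdown, with 2 libraries at 0, and 2 to 13 counts in Standard Dot1l overexpression.

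Sox9 (ENSMUSG00000000567, chr11:112782210-112787757), the transcription factor, had 16.8 to 38.2 CPM in ELS GFP (median 26.4) and 19 to 89.8 CPM in Standard GFP (median 33.7). In 7 of 8 ELS GFP libraries it lay below the Standard GFP median. The log2 fold change was -0.5 (SE 0.32, edgeR adjusted p = 0.581) and -0.24 without Standard GFP replicate 5. ELS Dot1l knockdown was the tightest group, at 26 ± 3.57 CPM (SD, n = 8), and Standard Dot1l overexpression the widest, at 60.2 ± 48.5 CPM (SD, n = 8).

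Fgfr3 (ENSMUSG00000054252, chr5:33721724-33737068), the growth factor receptor, had 3.27 to 19.2 CPM in ELS GFP (median 13.1) and 9.12 to 40.5 CPM in Standard GFP (median 17.7). The log2 fold change was -0.71 (SE 0.29, edgeR adjusted p = 0.302) and -0.53 without Standard GFP replicate 5. In 6 of 8 ELS GFP libraries Fgfr3 lay below the Standard GFP median, and replicate 6, which was also lowest for Gja1, held 16 counts. It averaged 14.9 ± 3.08 CPM in ELS Dot1l knockdown and 17 ± 4.84 CPM in Standard Dot1l overexpression (SD, n = 8 each).

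The overexpression comparison asked what the vector meant to raise Dot1l did in animals of standard rearing. The astrocyte genes did not lean one way: 3 were higher and 6 lower in Standard Dot1l overexpression than in Standard GFP, and the median log2 fold change was -0.01 against 0.02 over all genes. Sox9 was higher by 0.65 (SE 0.32, unadjusted p = 0.0479, edgeR adjusted p = 0.452), where 4.59% of all tested genes were higher and 6.28% lower at an unadjusted p under 0.05. It had 160, 106 and 62.4 CPM in overexpression replicates 1, 2 and 5 and 23.5 to 37.1 CPM in the other 5, against a Standard GFP median of 33.7 CPM. The log2 ratio of the group medians was 0.13, and without overexpression replicate 1, which held 33.2% of the summed Sox9 level, the log2 fold change was 0.29. Per library total replicate 1 held 84.4 and replicate 2 held 120 counts per 1000000, and the log2 fold change was 0.44. Aqp4 at -0.48 (SE 0.25) and Gja1 at -0.46 (SE 0.26) were the lowest, with edgeR adjusted p of 0.496 and 0.552. Fgfr3 stood at -0.26 (SE 0.29), Gjb6 at -0.23 (SE 0.49), Slc1a2 at -0.01 (SE 0.18) and Slc1a3 at -0.01 (SE 0.24), and Aldh1l1 at 0.26 (SE 0.3) and Aldoc at 0.13 (SE 0.24). In the fit without a filter S100b had 0.32 (SE 0.78). Over all genes edgeR called 0% past the adjusted threshold, with 1524 at an unadjusted p under 0.05, limma voom called 0 and DESeq2 called 42.

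The knockdown comparison set ELS Dot1l knockdown against ELS GFP. The astrocyte genes again did not lean one way: 5 were higher and 4 lower, and the median log2 fold change was 0.11 against 0 over all genes. None was under an unadjusted p of 0.05, where 2.23% of all tested genes were higher and 3.95% lower at that level. Gjb6 stood highest at 0.6 (SE 0.49) and Aldoc lowest at -0.29 (SE 0.24), with edgeR adjusted p of 0.976 and 0.977. For Gja1 the difference was 0.13 with a 95% interval of -0.4 to 0.67. Fgfr3 stood at 0.25 (SE 0.29), Slc1a3 at 0.16 (SE 0.24), Aqp4 at 0.11 (SE 0.25), Sox9 at -0.06 (SE 0.32), Slc1a2 at -0.21 (SE 0.18) and Aldh1l1 at -0.28 (SE 0.29). S100b had 0.36 (SE 0.72) in the fit without a filter. Over all genes edgeR called 0% past the adjusted threshold, with 866 at an unadjusted p under 0.05, limma voom called 0 and DESeq2 called 2.

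Set against Standard GFP, the ELS Dot1l knockdown group was lower in all 9 tested genes, by 0.12 to 0.75 on the log2 scale, with a median of -0.55 against -0.02 over all genes. Gja1 at -0.75 (SE 0.26), Aqp4 and Aldoc at -0.55 each (SE 0.25 and 0.24), Slc1a3 at -0.48 (SE 0.24) and Slc1a2 at -0.43 (SE 0.18) were under an unadjusted p of 0.05. These are 5 of 9, where 7.70% of all tested genes were lower at that level. None passed after adjustment, with the smallest edgeR adjusted p at 0.245 for Gja1, and over all genes edgeR called 0%, with 1515 at an unadjusted p under 0.05, limma voom 0 and DESeq2 76. Aldh1l1 stood at -0.57 (SE 0.3), Sox9 at -0.56 (SE 0.32), Fgfr3 at -0.46 (SE 0.29) and Gjb6 at -0.12 (SE 0.5), and S100b had 1.07 (SE 0.78) in the fit without a filter. This comparison shares its Standard GFP libraries with the ELS comparison, so both carry the same high control libraries. Without Standard GFP replicate 5 the median was -0.33 and 1 gene was under 0.05. Per library total, without TMM factors, none was under 0.05 and Gjb6 stood at 0.12, against a median of 0.08 over all genes.

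**Figure D2:**
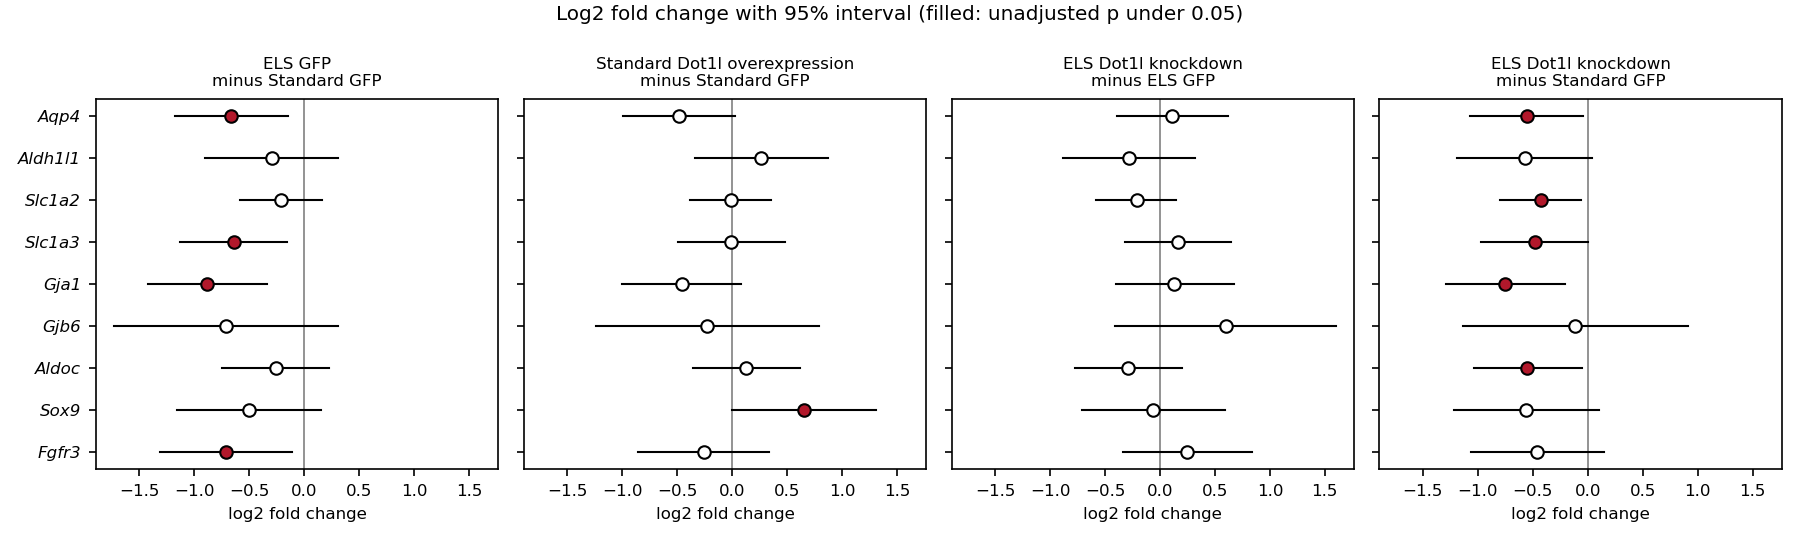
Log2 fold change (horizontal axis) of the 9 tested astrocyte genes with 95% intervals in the 4 comparisons, the filled points being those with an unadjusted p under 0.05. All points lie left of 0 in both comparisons of an ELS group with Standard GFP, and on both sides of 0 in the other 2.

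The astrocyte genes partly varied together from library to library. Over the 32 libraries, 33 of 36 gene pairs had a Pearson correlation of log2 CPM above 0, with a median r of 0.38, and of 0.27 after the group means were taken out. These r values are descriptions over libraries that share depth and tissue composition. Aldh1l1 with Aldoc (0.69) and Slc1a2 with Slc1a3 (0.68) were the closest pairs, while Gjb6 with Aqp4 (-0.16) was the least alike and Gjb6 had r = 0.03 with the mean of the others. The mean standardised level of the 9 genes was highest in Standard GFP replicate 5, at 1.68 SD, and in Standard Dot1l overexpression replicates 2 and 1, at 1.36 and 0.87. It was lowest in ELS GFP replicate 6, at -1.21, where Gja1, Fgfr3 and Aldh1l1 all had the lowest level of the group. Overexpression replicate 1 had a TMM factor of 0.53, and 4 of the 9 genes lay below the Standard GFP median there. Per library total, without that factor, it was the lowest library of its group for Aqp4, Aldh1l1, Gja1, Aldoc and Fgfr3.

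Of 4982 other genes with a mean log2 CPM of at least 4, the 10 whose pattern was most like that mean over the 32 libraries were Scamp5 and Kcnj10 (r = 0.71 each), Tspan7 and Map4k4 (0.69), Bcan (0.67), Gabbr1 and Sec16a (0.66), and Matk, Sparcl1 and Selenof (0.65). The median r over those genes was 0.07. Kcnj10 is the inward rectifier potassium channel of astrocytes, and Bcan and Sparcl1 are extracellular proteins that astrocytes secrete. Scamp5, Tspan7, Map4k4, Gabbr1, Sec16a, Matk and Selenof are in none of the gene lists used here. The likeness therefore does not name a cell type. The same mean had r = -0.32 with the log10 depth of the library, and the part of depth in the result was not tested.

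**Figure D3:**
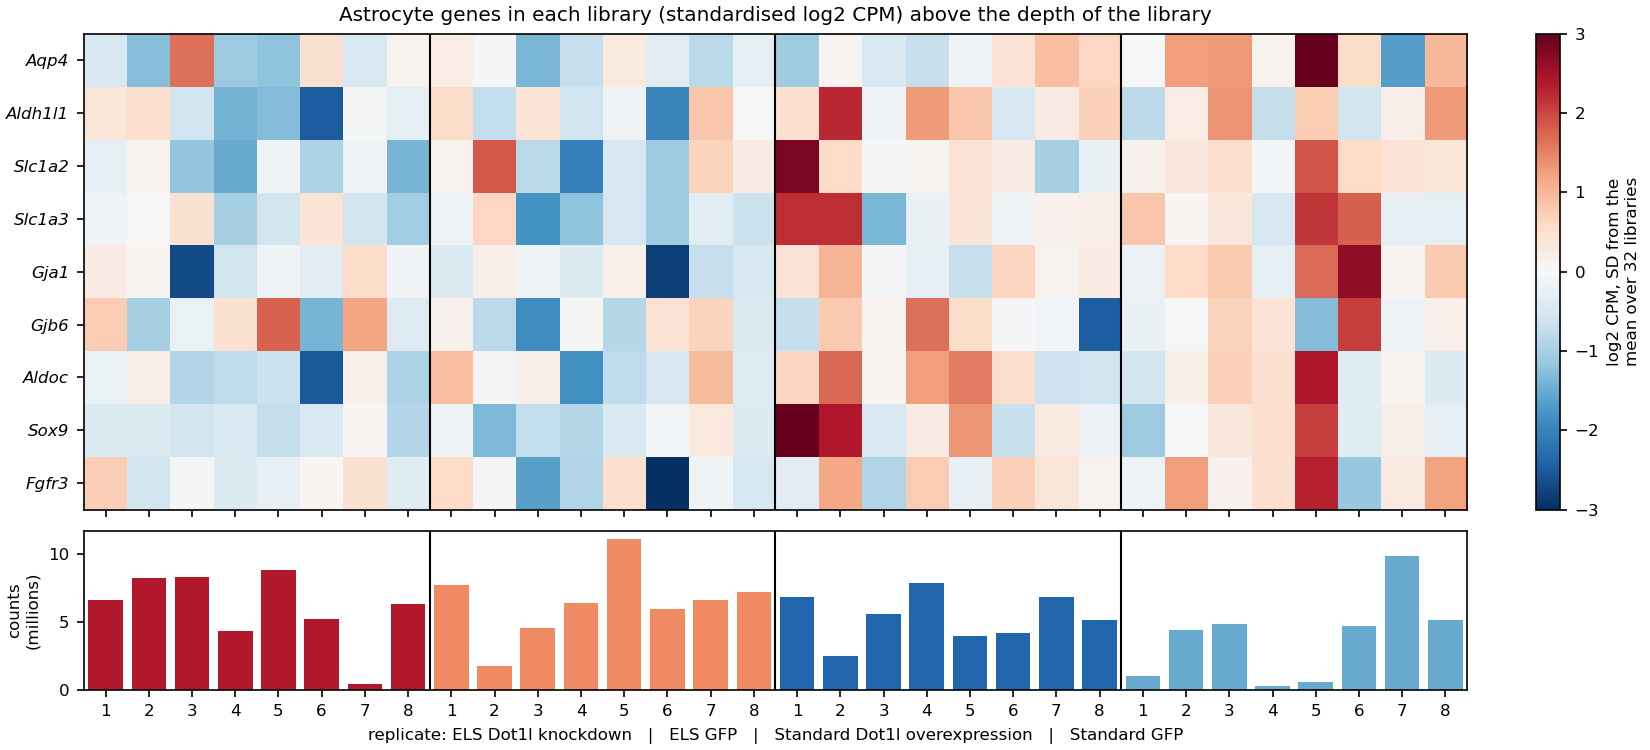
Log2 CPM of the 9 tested astrocyte genes (rows) in each of 32 libraries (columns, by group), as SD from the mean over libraries, above the depth of each library. Red columns stand out at Standard GFP replicate 5 (545917 counts) and Standard Dot1l overexpression replicates 1 and 2, and blue ones at ELS GFP replicates 3, 4 and 6. Levels are scaled by TMM factors. In overexpression replicate 1, with a factor of 0.53, 4 of the 9 genes lay below the Standard GFP median.

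Other genes of astrocyte function were compared with the same fit, by lists chosen for their known roles. Of 25 tested secreted and adhesion proteins, 20 stood lower and 5 higher in ELS GFP against Standard GFP, at a median of -0.4, and 7 were lower at an unadjusted p under 0.05, where 7.73% of all tested genes were. Megf10, a receptor astrocytes use to engulf synapses, had 12.6 ± 4.16 CPM in ELS GFP and 25 ± 7.62 CPM in Standard GFP (SD, n = 8 each), a log2 fold change of -0.99 (SE 0.3) with an edgeR adjusted p of 0.135. Sparc, a matrix protein, had -1.25 (SE 0.38) and Ncan, a proteoglycan of the extracellular matrix, -0.63 (SE 0.21). For Sparc, 33.6% of the summed Standard GFP level lay in replicate 6, and the log2 ratio of the group medians was -0.56. For Ncan that ratio was -0.18, with 23.7% of the Standard GFP sum in replicate 6. Megf10 did not rest on 1 library in this way, with a log2 ratio of medians of -0.95 and at most 17.3% of the Standard GFP sum in 1 library.

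Of 14 genes of glutamate, potassium and water handling, 12 were lower and 2 higher, with a median of -0.31 and 3 lower at an unadjusted p under 0.05, against the same 7.73% of all tested genes. These were Atp1b2, a sodium pump subunit of glia, at -0.55 (SE 0.2), Mlc1, a membrane protein of astrocyte endfeet, at -0.75 (SE 0.29), and Kcnj10 at -0.49 (SE 0.23). Their log2 ratios of medians were -0.75, -0.41 and -0.31. Standard GFP replicate 6 held 32.5% of the Mlc1 sum of its group and replicate 5 held 27.5% of that of Kcnj10. Of 16 genes of astrocyte metabolism 8 were lower and 8 higher, with a median of -0.01, and Mt1, a metallothionein, at -1.36 (SE 0.44), Pygb, a glycogen phosphorylase, at -0.54 (SE 0.27), and Gldc, of glycine breakdown, at -0.66 (SE 0.35) had the smallest p. Standard GFP replicate 5 held 46.5% of the Gldc sum of its group and replicate 6 held 27.2% of that of Pygb, and the log2 ratios of medians were -0.14 and -0.08. For Mt1, Standard GFP replicate 1, with 980189 counts, held 40.6% of the sum, and the log2 ratio of medians was -0.95. Of 18 glial transcription factors 9 were lower and 9 higher (median -0.01), led by Sox8 at -1.12 (SE 0.38), with Gli3 at -0.59 (SE 0.34) and Nfib at 0.39 (SE 0.24). For Gli3, Standard GFP replicate 6 held 40.7% of the sum and the log2 ratio of medians was -0.17. Of 17 receptors and ligands of the FGF, Notch and Hedgehog pathways 10 were lower and 7 higher (median -0.12), with the growth factor Fgf9 at 1.99 (SE 0.6), the cytokine receptor subunit Cntfr at -1.1 (SE 0.43) and Notch3 at 0.92 (SE 0.5). ELS GFP replicate 2 held 59.1% of the summed Fgf9 level, and the log2 ratio of medians was 0.88. For Cntfr that ratio was -0.45, and 44.5% of the Standard GFP sum lay in replicate 6. Of 7 tested genes listed as gap junction proteins, 4 were lower and 3 higher (median -0.09). This list includes Panx1 and Panx2, which encode pannexins and not connexins. Panx2 stood at 0.75 (SE 0.36), Gja5 at 1.52 (SE 0.83) and Gjc3 at -0.4 (SE 0.38). ELS GFP replicate 6 held 63.6% of the summed Gja5 level, and the log2 ratio of medians was -0.05, of the other sign. For Panx2, ELS GFP replicate 2 held 39% of the sum, and the log2 ratio of medians was 0.16. Every edgeR adjusted p of the genes named here was above 0.05, the smallest being 0.135.

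Of 17 tested genes known to be raised in reactive astrocytes, 8 were lower and 9 higher in ELS GFP against Standard GFP, at a median of 0.06. The complement gene C4b, at -0.84 (SE 0.26, edgeR adjusted p = 0.145), the protease inhibitor gene Serpina3n, at -0.7 (SE 0.34), and Ggta1, at -0.52 (SE 0.32), had the smallest p. Their log2 ratios of medians were -0.45, -0.77 and -0.11. Standard GFP replicate 6 held 25.8% of the C4b sum of its group and replicate 5 held 25.4% of that of Ggta1. In ELS Dot1l knockdown against ELS GFP, 16 of the 17 were higher and 1 lower, at a median of 0.34, and none was under an unadjusted p of 0.05. Over all tested genes 49.8% were lower in that comparison, at a median of 0, and 2.23% were higher at an unadjusted p under 0.05. Lcn2, a secreted protein of reactive astrocytes, stood highest at 1.33 (SE 0.73), with 46.4% of its summed knockdown level in replicate 3. All 11 tested microglia markers were higher in the same comparison as well, at a median of 0.41, and none was under an unadjusted p of 0.05. Their summed level ran from 442 to 1830 CPM in ELS Dot1l knockdown and from 624 to 1290 CPM in ELS GFP, with P2ry12 and Itgam listed at 0, and their part in the result was not tested.

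In the other comparisons the gene of smallest p in each list is given, all with edgeR adjusted p above 0.05, and some of them, such as Gjc3 and Gjb2, also had an unadjusted p above 0.05. In Standard Dot1l overexpression against Standard GFP the higher ones were Hepacam, an endfoot adhesion protein, at 1.26 (SE 0.46), Smo, of the Hedgehog pathway, at 0.93 (SE 0.38), Dio2, which activates thyroid hormone, at 0.76 (SE 0.3), and Emp1 at 2.14 (SE 0.79). Lower were Sox8 at -0.85 (SE 0.38), Gjc3 at -0.59 (SE 0.38) and Ncan at -0.53 (SE 0.21). Overexpression replicate 1 held 62.8% of the summed Hepacam level, whose log2 ratio of medians was -0.08. It is the same library that was highest for Sox9 and Slc1a2, and it held 29.8% of the Dio2 sum. The log2 ratios of medians were 0.9 for Smo, 0.37 for Dio2 and 1.32 for Emp1. They were -1.33 for Sox8, -0.57 for Gjc3 and -0.11 for Ncan. For Ncan, 23.7% of the Standard GFP sum lay in replicate 6, and for Sox8, 34.3% in replicate 5. In ELS Dot1l knockdown against ELS GFP, the GABA transporter gene Slc6a11 stood at -0.81 (SE 0.34), Gja5 at -1.97 (SE 0.82) and Nfix at -0.52 (SE 0.24). Dio2 stood at -0.47 (SE 0.29), Bmpr1b at 0.52 (SE 0.26) and Megf10 at 0.47 (SE 0.29). The log2 ratio of medians of Gja5 was 0.17, again of the other sign. It was -0.49 for Slc6a11, -0.26 for Nfix, -0.47 for Dio2 and 0.42 each for Bmpr1b and Megf10. ELS GFP replicate 2 held 34.2% of the Slc6a11 sum and 29.2% of that of Nfix. In ELS Dot1l knockdown against Standard GFP, the smallest p of each list was that of Ncan at -0.83 (SE 0.21), Ptch1 at -0.9 (SE 0.29), C4b at -0.81 (SE 0.26), Sox8 at -1.02 (SE 0.38), Gldc at -0.91 (SE 0.36), Slc6a11 at -0.83 (SE 0.35) and Gjb2 at -1.03 (SE 0.82). Their log2 ratios of medians were, in the same order, -0.48, -0.49, -0.38, -0.83, -0.22, -0.37 and -1.4. Standard GFP replicate 5 held 46.5% of the Gldc sum of its group. Replicate 6 held 42% of that of Slc6a11 and 34% of that of Ptch1. Gjb2 averaged only 0.947 CPM in ELS Dot1l knockdown and 1.51 CPM in Standard GFP.

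Markers of other cell types were counted in the same way in the ELS comparison, and by edgeR 0 of them passed the adjusted threshold. Medium spiny neuron markers were lower for 15 of 18 genes (median -0.75), 5 of them at an unadjusted p under 0.05. At that level 7.73% of all tested genes were lower and 4% higher. The medium spiny neuron markers summed to 920 to 3060 CPM in ELS GFP and 856 to 3860 CPM in Standard GFP. Among 14 myelin genes the log2 fold change was negative for 13 (median -0.41), 2 of them under 0.05, with sums of 461 to 1200 CPM in ELS GFP and 633 to 1180 CPM in Standard GFP. Of 11 microglia markers 9 were lower (median -0.4), of 7 markers of oligodendrocyte precursors 4 were lower (median -0.59), and of 8 general neuronal markers 6 were lower (median -0.15), with Tubb3 and Nefl listed at 0. Under 0.05, 2 microglia, 2 precursor and 2 neuronal markers were lower, and 1 precursor marker was higher. Endothelial and pericyte markers leaned the other way, with 9 of 13 higher at a median of 0.16, and of 4 ependymal and choroid plexus genes 3 were higher (median 0.38). Under 0.05, 1 endothelial or pericyte marker was higher, and of the ependymal and choroid plexus genes 1 was higher and 1 lower. The part of these differences in the result for the astrocyte genes was not tested.

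**Figure D4:**
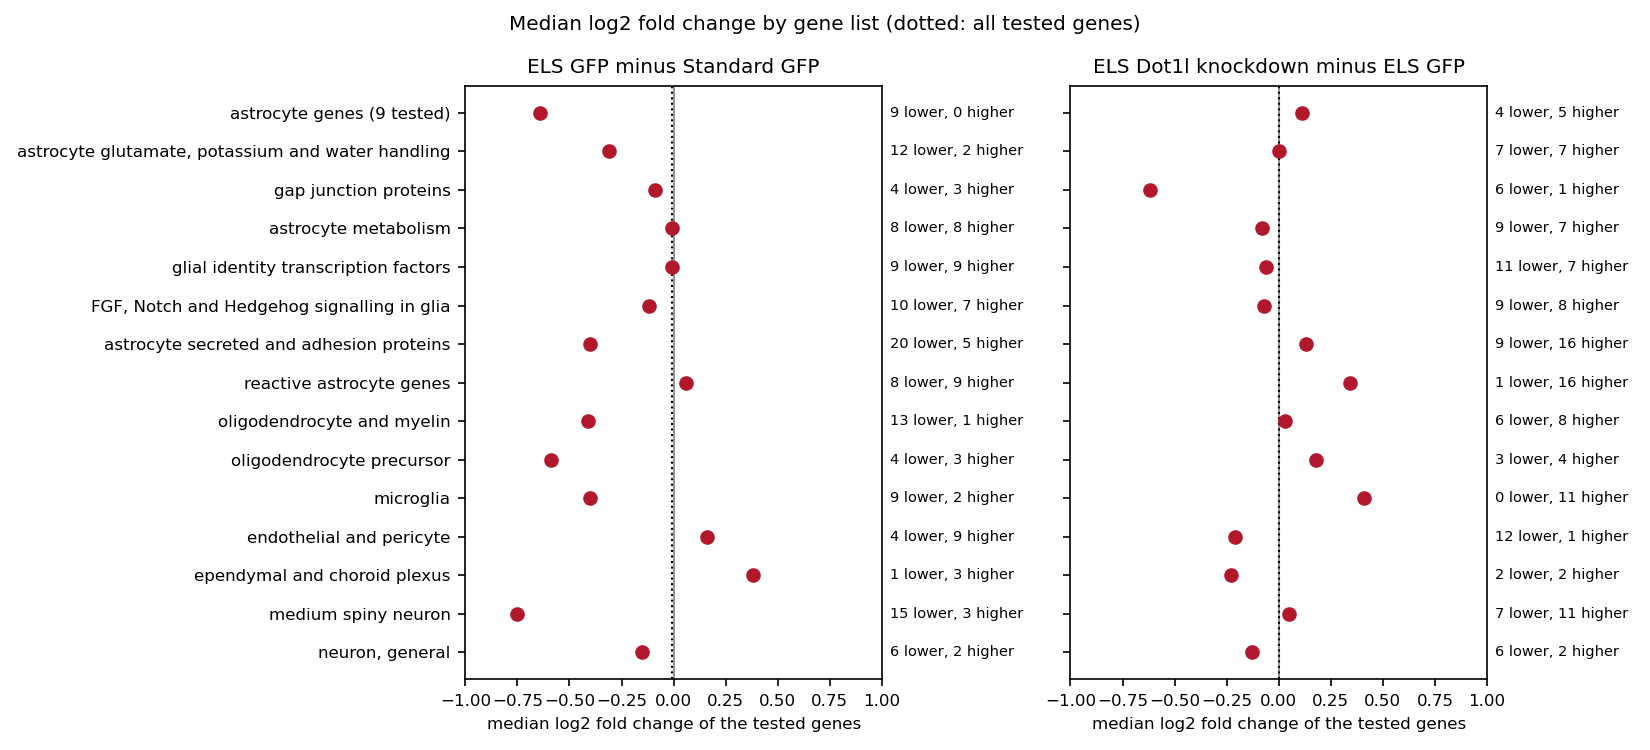
Median log2 fold change (horizontal axis) over the tested genes of each list in ELS GFP against Standard GFP (left) and ELS Dot1l knockdown against ELS GFP (right), with the numbers of genes lower and higher. The astrocyte genes lie at -0.64 on the left and at 0.11 on the right, and the dotted line marks the median over all tested genes (-0.01 and 0).

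Of the 10 astrocyte genes, only Slc1a2 had H3K79me2 peaks in the deposited lists. Peaks at Slc1a2 numbered 3 in the ELS list and 7 in the Standard list, all annotated to the gene body. The other 9 genes had none in either list, also when peaks were sought by coordinates in the gene or 3 kb before its start. Most expressed genes did have a peak: among tested genes with a mean CPM within the range of the astrocyte genes, 66.6% had one in the ELS list and 70.7% in the Standard list, against 1 of 10 here. The nearest peak to Sox9 lay 265 kb away in the ELS list and 264 kb in the Standard list, and that to Aqp4 242 kb away in both. Aldoc had a peak 0.837 kb from its end in the ELS list and 0.741 kb in the Standard list, which is annotated to its neighbour Pigs.

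Peaks were also few at the genes of several other glial and vascular lists. In the ELS and Standard lists, a peak was annotated to 1 and 2 of 24 reactive astrocyte genes, 2 and 2 of 15 myelin genes, 2 and 2 of 13 microglia genes and 0 and 0 of 14 endothelial and pericyte genes. Among 18 medium spiny neuron genes 11 had a peak in the ELS list and 12 in the Standard list. Of 27 secreted and adhesion proteins 5 and 7 had one, and of 17 genes of glutamate, potassium and water handling 7 and 7. The counts were 10 and 10 of 20 FGF, Notch and Hedgehog genes, 7 and 10 of 21 glial transcription factors and 6 and 6 of 18 metabolism genes. Over all genes tested for RNA, 52.8% had a peak in the ELS list and 57% in the Standard list. The lists also differ in RNA level: 17 of the 24 reactive astrocyte genes passed the filter on low counts, and all 18 medium spiny neuron genes did. These are counts from whole tissue and 1 list per group, and no test was made of them.

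At Slc1a2, the ELS peaks covered 661 bases and the Standard peaks 3058 bases, a ratio of 0.216. Among 10879 genes with peaks in both lists the median ratio was 0.73, and 38.7% were shorter in the ELS list by at least 1.5-fold, so a shorter stretch in ELS was common. A ratio at or below that of Slc1a2 was found in 2.4% of them. Peaks came from 1 list per group, so the difference has no replicate check. All 3 ELS peaks and 5 of the 7 Standard peaks lay within 13 kb of the first annotated start of the gene, at chr2:102658659 on mm10, and the other 2 Standard peaks began at 102715096 and 102729536. The promoter window of Slc1a2 printed above belongs to a later RefSeq start, lies between these near and far peaks, and overlaps none of them.

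The peak with the highest fold in the ELS list lay at chr2:102668604-102668817, with the authors' fold of 1.76 and q-value of 0.000844. In the Standard list it was the one at chr2:102668558-102669002, with a fold of 2.08 and a q-value of 8.98e-07, which spans it. By an overlap of at least 1 base, 2 of the 3 ELS peaks met a Standard peak and 2 of the 7 Standard peaks met an ELS peak, where 90.8% of all ELS peaks and 62.6% of all Standard peaks did so. Folds averaged 1.71 over the ELS peaks and 1.8 over the Standard peaks of Slc1a2, below the medians of all peaks in the 2 lists (1.92 and 1.96). The difference in Slc1a2 RNA between the rearing groups did not pass the test (edgeR adjusted p = 0.724), and the RNA and chromatin libraries are separate samples.

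**Figure D5:**
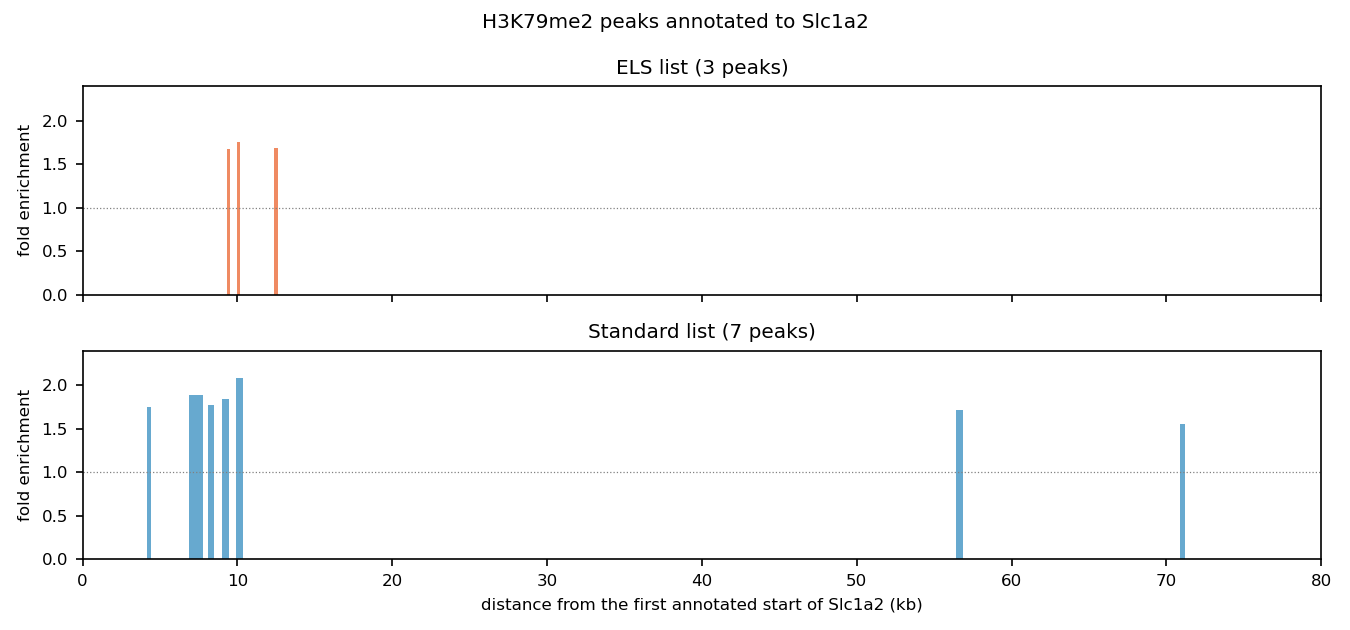
H3K79me2 peaks annotated to Slc1a2 in the ELS list (top) and the Standard list (bottom), by distance from the first annotated start in kb, with bar width equal to peak width and height to the authors' fold enrichment. The 3 ELS peaks lie near the first 5 Standard peaks, and the 2 far peaks appear in the Standard list alone.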

How the data were processed

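RNA was extracted from whole tissue with a column kit and sequenced in pairs, per the labels' protocols. The deposited table holds raw counts per Ensembl gene, which the authors had not normalized. FastQC, HISAT2, featureCounts and DESeq2, and the mm10 build, are named without roles or versions per the submitters' processing notes. Neither the counting rule nor the use of strand is stated, so overlapping or antisense genes cannot be told apart. For H3K79me2 the authors gave a single list of peaks for each rearing group, where per the file headers every deposited peak has a fold (ratio) and a q-value. Neither the caller nor the pooling of libraries is stated. The 432179 ELS and 475994 Standard lines were reduced to 106374 and 117819 distinct peaks.

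Counts were tested with edgeR 4.0.16 in R 4.3.3 (TMM, filterByExpr, robust quasi-likelihood, 1 fit of 32 libraries with 28 residual degrees of freedom), and p-values were adjusted by Benjamini-Hochberg over 14016 genes. The SE of a log2 fold change is its size over the square root of F. CPM are counts per 1000000 of the TMM library size. Log2 CPM for correlations used a prior count of 2. The fit was tested on simulated counts. Symbols were found for 52403 of 52636 IDs, and 0 columns were left unmatched. Alternatives used DESeq2 1.42.0, limma 3.58.1, sva 3.50.0, other scalings and filters, and omission of each library, and library totals without TMM factors, added after the data were seen. Replicate numbers follow accession order and pair nothing. Peaks were assigned to genes by the gene name on each line, with Python 3.11.15 and pandas 2.3.3, at full peak widths.

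The members and lists were chosen with earlier results of these data known. All 10 genes were given in every comparison, as were the genes of smallest p in each other astrocyte list (3 in the ELS comparison, 1 in the others). Limits set by a count of 0 cover counting error only, and intervals of log2 fold changes include the spread between libraries. Peaks per library were not analysed here.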

Additional observations from a re-analysis of the deposited data

Results flagged for a closer look

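In 40 groups of 8 libraries (10 genes in 4 groups), 11 had 1 library set apart from the rest by Dixon's test at the 95% level, which sets its gap to the next library against the range of the group. For normally distributed values chance flags about 1 in 20 groups. CPM were used here without a log, so that rate need not hold for them. The 11 also share libraries, so they are not independent. Per library total, without TMM factors, 3 of the 11 were still apart: Aqp4 in Standard GFP replicate 5, S100b in ELS GFP replicate 6 and Sox9 in ELS Dot1l knockdown replicate 7. On that scale 6 of the 40 groups had a library apart, some of them not among the 11. Slc1a3 was then set apart as highest in Standard GFP replicate 5 and in Standard Dot1l overexpression replicate 2. Aqp4 was set apart as lowest in Standard Dot1l overexpression replicate 1.

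Standard GFP replicate 5 was highest for Aqp4 at 162 CPM (next library 84.6 CPM), for Slc1a2 at 2010 CPM (next 1460), for Aldoc at 155 CPM (next 83.4) and for Sox9 at 89.8 CPM (next 41.4). It held 545917 counts. Standard GFP replicate 6 was highest for Gjb6 at 19.4 CPM (next 7.64).

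In Standard Dot1l overexpression, replicate 1 was highest for Slc1a2 at 2560 CPM (next 1450), with a TMM factor of 0.53, and per library total it held 1350 counts per 1000000, below replicate 2 at 1650. In ELS GFP, replicate 6 was lowest for Gja1 at 12.5 CPM (next 31.1) and highest for S100b at 5.73 CPM (next 1.34). In ELS Dot1l knockdown, replicate 3 was highest for Aqp4 at 96.7 CPM (next 63.2), replicate 6 for S100b at 9.13 CPM (next 3.29) and replicate 7 for Sox9 at 33.4 CPM (next 26.8).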

How the results depend on the processing

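In ELS GFP against Standard GFP all 9 genes were lower under each alternative except surrogate variables, where 8 were. The median of -0.64 was -0.37 with limma voom and -0.19 with surrogate variables. The 4 genes under an unadjusted p of 0.05 were 0 with surrogate variables and 1 without libraries under 1000000 counts. With each library left out in turn, the median ran from -0.71 to -0.44 and the genes under 0.05 from 2 to 4. Slc1a2 turned to 0.03 with surrogate variables.

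For knockdown against Standard GFP, the 5 genes were 1 with no filter, 3 with the title number as a factor, 1 with surrogate variables, 2 with limma voom and 2 without libraries under 1000000 counts, and 1 to 6 with a library left out. The median was -0.27 with surrogate variables, -0.34 with limma voom and -0.58 to -0.33 with a library left out. The genes lower numbered 8 to 9 and Gjb6 ran from -0.49 to 0.35.

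For overexpression, where the median was -0.01, its sign was not stable: 0.02 with no filter, 0.01 with the title number, 0.09 with surrogate variables, 0.04 without libraries under 1000000 counts and -0.16 to 0.08 with a library left out. Slc1a3 stood at 0.01 with library sizes free of the top 10 features, 0.04 with no filter, 0.02 with the title number, 0.24 with surrogate variables, 0.03 with limma voom and 0.13 without libraries under 1000000 counts, and from -0.16 to 0.14 with a library left out. Slc1a2 stood at 0.02, 0.01, 0.09 and 0.04 with no filter, the title number, surrogate variables and without libraries under 1000000 counts, and from -0.17 to 0.07 with a library left out. Gjb6 ran from -0.58 to 0.24. The 1 gene higher under 0.05, Sox9, was 0 with DESeq2 size factors, surrogate variables, DESeq2, limma voom and the 2 groups alone, and 0 to 1 with a library left out. DESeq2 had 1 gene lower under 0.05, and 0 to 1 were so with a library left out, where 4 to 6 genes were lower.

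For knockdown against ELS GFP, the median of 0.11 was -0.02 with the title number, -0.12 with surrogate variables, -0.08 with limma voom and -0.05 to 0.17 with a library left out. Surrogate variables put 7 genes lower, with Aqp4 at -0.28, Slc1a3 at -0.14 and Fgfr3 at -0.06. Gja1 stood at -0.02 with the title number and Aqp4 at -0.12 with limma voom. With a library left out, 3 to 5 genes were lower, Aqp4 ran from -0.09 to 0.18 and Sox9 from -0.13 to 0.03. The cause of these shifts was not tested. On library totals without TMM factors, chosen after seeing the data, Gjb6 stood at 0.03 for overexpression and at 0.12 for knockdown against Standard GFP, and Sox9 at 0.08 for knockdown against ELS GFP. The genes under 0.05 were then 0 for overexpression (higher) and 0 for knockdown against Standard GFP, and the median over all genes was 0.11 for knockdown against ELS GFP and 0.08 against Standard GFP. The title number is the digit in a library's title, whose meaning is not stated. It was not balanced between the groups. Number 2 was that of Standard GFP replicates 4, 5 and 6 and ELS GFP replicate 2. Standard Dot1l overexpression replicates 1 and 2 and ELS Dot1l knockdown replicates 6 and 7 carried it too. Several libraries named above as shallow or set apart thus share a title number. Each number occurs in both ELS GFP and Standard GFP, so it could be held as a factor in the fit. In that fit all 9 genes were still lower in the ELS comparison. Aldh1l1 stood at -0.12 and Sox9 at -0.21, against -0.29 and -0.5 in the main fit. The part of whatever the number stands for was not tested further.

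At the common median fold of both lists, 0 ELS peaks (0 bases, 0 genes) and 1 Standard peak (444 bases) were left at Slc1a2. With at least 50% of each peak shared, 0 ELS and 0 Standard peaks overlapped. No paired analysis was possible because the replicate numbers were given in accession order. Over all genes and libraries, edgeR called 0 past adjustment in each comparison and DESeq2 called 88 (ELS), 42 (overexpression), 2 (knockdown against ELS GFP) and 76 (against Standard GFP). With no filter on low counts 4152, 4216, 4209 and 3540 of 31069 genes were under an unadjusted 0.05, and the title number left 915, 960, 674 and 949 of 14016. Without libraries under 1000000 counts edgeR called 7 genes for ELS and 18 for overexpression, and with surrogate variables 1 for overexpression. For knockdown against Standard GFP it called 7 without Standard GFP replicate 2 and 15 without replicate 7. With no filter the median over all genes was 0.18 for overexpression, against 0.02 with it. Gjb6 and S100b were limited by depth, at 1 to 137 and 0 to 39 counts per library.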

Other observations

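Of the 52636 genes of the table, 21567 (41%) were listed at 0 in all 32 libraries, and some of them are well known for brain tissue. Among the lists used here these included Gfap, Timp1, Cxcl10, H2-T23 and Ptx3 of 24 reactive astrocyte genes, Htra1 and Timp3 of 27 secreted proteins, Sox2 of 21 transcription factors, Fgf1 and Fgf2 of 20 signalling genes, Gpr17 of 9 precursor genes, P2ry12 and Itgam of 13 microglia genes, and Tubb3 and Nefl of 10 general neuronal genes. Slc6a9 had 1 count in 1 library. None of the 10 astrocyte genes or of the 18 medium spiny neuron genes was at 0 throughout. The cause was not tested, and a 0 here is not read as a level in the tissue.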
